A study of Mus musculus with 9 samples.

Results

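Hyaluronan is a long unsulfated sugar polymer that fills the space between cells, and it is the main scaffold of the brain's extracellular matrix. Hyaluronan synthases in the plasma membrane make it from UDP-sugars and push the growing chain out of the cell, where CD44 on the cell surface and large proteoglycans such as versican bind it. The small leucine-rich proteoglycans decorin, biglycan, lumican, fibromodulin and osteoglycin are short secreted core proteins that bind collagen fibrils, and some of them also bind growth factors such as TGF-beta. The 10 genes described here encode the 3 hyaluronan synthases (Has1, Has2, Has3), the receptor Cd44, the large proteoglycan Vcan and the 5 small leucine-rich proteoglycans (Dcn, Bgn, Lum, Fmod, Ogn). They were chosen by name, with earlier results of these data known, from 20076 genes with a ratio in at least 1 of the 2 deposited tables. Of the 10 genes, 5 were matched by the symbol in the tables and 4 through the gene ID, and these 9 had a ratio in both tables. Lum matched no gene with a ratio and is not analysed here.

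All groups were cultured mouse brain astrocytes of the genotype Ink4a-/-, which lack a brake on the cell cycle, grown in serum-containing medium. They had been transfected with a puromycin-resistance plasmid carrying HA-tagged JICD1, the cytoplasmic tail of Jagged1, a Notch ligand (pcDNA HA-JICD1 puro), with one carrying the intracellular part of the receptor Notch1 (pcDNA NICD puro), or with the empty plasmid (pcDNA puro) as control. RNA-seq libraries numbered 9, with 3 for each transfection, and no label says that they came from separate cultures. The authors' deposited tables hold 1 log2 ratio over control and 1 score between 0 and 1 per gene for each construct, and no value per library, so neither a spread between libraries nor a p-value can be given, and the depth behind each ratio is unknown.

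Higher and lower state only on which side of 0 a log2 ratio lies, without a test. The score is not a p-value; a gene with a score of 0.8 or more is called scored, a threshold chosen with the data in view. In the authors' deposited tables Jag1, the gene of the ligand, had a log2 ratio of -1.39 (score 0.759) in the JICD1 comparison, so the group is called the libraries labelled JICD1. No source used here says whether reads of the construct are counted under Jag1. Notch1 stood at 1.77 (score 0.815) with NICD1 and at 1.33 (score 0.735) in the libraries labelled JICD1 in the authors' deposited tables. Jag1 stood at 1.36 (score 0.819) with NICD1 in the authors' deposited table. The astrocyte markers could be checked as ratios only, not as levels: Aqp4 had no ratio, and Gfap had scores of 0.242 in the libraries labelled JICD1 and 0.261 with NICD1 in the authors' deposited tables.

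The genes that stood farthest from control were Has2 with NICD1 and Dcn with both constructs. Has2 was far higher with NICD1, and Dcn was lower with NICD1 and lowest in the libraries labelled JICD1. Of the 9 measured genes, 0 were scored higher and 1 was scored lower in the libraries labelled JICD1, and with NICD1 1 was scored higher and 1 lower. In the JICD1 comparison 1.07% of all genes were scored higher and 1.74% scored lower, and in the NICD1 comparison 1.64% and 0.97% were. The other 7 genes were scored in neither comparison. The genes were chosen with these ratios known, so nothing is read from these counts against the shares of all genes.

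**Figure D1:**
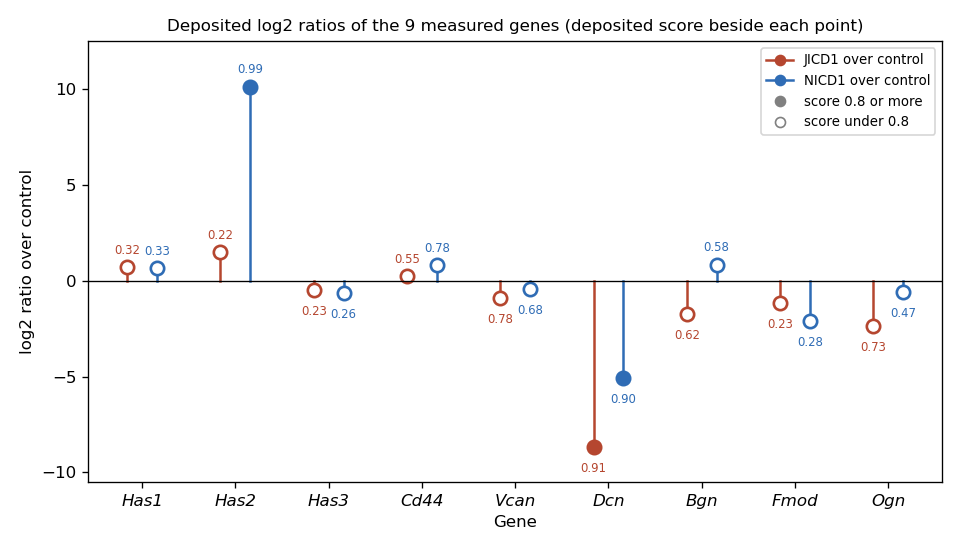
Deposited log2 ratio over control (vertical axis) of each of the 9 measured genes in the libraries labelled JICD1 (red) and with NICD1 (blue), with the deposited score beside each point; filled points have a score of 0.8 or more. There is 1 value per gene and construct, with no replicate error. Has2 with NICD1, at 10.13, and Dcn, at -8.67 in the libraries labelled JICD1 and -5.08 with NICD1, stand apart from the other values, which lie between -2.37 and 1.49.

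Has2 encodes the hyaluronan synthase that is essential in mouse heart development. The authors' deposited tables gave it a log2 ratio of 1.49 (score 0.216) in the libraries labelled JICD1 and of 10.13 (score 0.993) with NICD1. The NICD1 value, taken at face value, is 1123-fold higher than control and was number 2 from the top among 19287 genes of the authors' deposited table. The JICD1 value, 2.80-fold higher by the authors' deposited table, carried a low score for its size. JICD1 over NICD1, as the difference of the authors' deposited log2 ratios, was -8.65, a 401-fold lower value in the libraries labelled JICD1. Both ratios use the same control, so this difference has no test of its own.

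How much RNA lies behind such ratios can be judged only indirectly. A set of 694 genes with identical ratios below 0 in the tables follows a curve of score against ratio that was taken to mark a group at a common floor value. A gene on that curve has 1 group at the floor by this inference, and its fold is left out. Ratios beyond a log2 of 9.45 or under 1 decide nothing. Has2 in the JICD1 comparison lay 0.0345 above the curve in score, so its control was not inferred to be at the floor, but its score ranked at only 29.2% among the scores of the 300 genes nearest in size of ratio. The same rank, used here in place of an expression level, was 97.5% for Has2 with NICD1. Its ratio there was number 2 from the top, so nearly all of the 300 genes compared had ratios of smaller size. Scores along the curve rise with the size of the ratio, so this rank partly follows from the ratio itself. It is therefore not comparable with the 29.2%. How the score was made is unknown, and its rank was not checked against an expression level in these data.

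Has2 lies on chromosome 15, whose genes were lower as a body in the libraries labelled JICD1. The median log2 ratio of its 668 genes in that comparison was -0.45, against 0.05 over all genes, and 73.7% lay below 0. With NICD1 the 677 genes of the chromosome had a median of -0.03. In the libraries labelled JICD1 Has2 lay above 0, on the other side from the chromosome's median, but with a low score of 0.216. There 43 of the 668 genes had a higher ratio than Has2. After subtraction of the chromosome median its ratio became 1.93 in the libraries labelled JICD1 and 10.17 with NICD1. What lowers the chromosome's genes was not tested. The genes beside Has2 did not share its NICD1 value: of 6 neighbours in gene order, 5 had a NICD1 ratio and none was scored. Sntb1, next to Has2 on one side, stood at 1.85 with NICD1 (score 0.204) in the authors' deposited table, with its control inferred at the floor. Derl1, which encodes a protein of endoplasmic reticulum quality control, stood at 0.04 (score 0.228) with NICD1 in the same table. In the JICD1 comparison Sntb1 (1.18) and Slc22a22 (1.22), on either side of Has2, also lay above 0 in the authors' deposited table. Each had its control inferred at the floor, and the other 4 neighbours lay below 0.

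The other hyaluronan synthases lay near control in both comparisons. Has1 had log2 ratios of 0.70 (score 0.323) in the libraries labelled JICD1 and 0.65 (score 0.325) with NICD1 in the authors' deposited tables. Has3, an isoenzyme that makes shorter chains in vitro, had -0.46 (score 0.229) in the libraries labelled JICD1 and -0.61 (score 0.262) with NICD1 in the authors' deposited tables. Their ranks of score among genes with ratios of like size ran between 25.7% and 43.2%. For Has1 the difference between the constructs was 0.05 and its sign changed when the ratios were centred, so no order of the constructs is given. Of the 3 synthases, Has2 with NICD1 was the sole value with a log2 ratio beyond 2 or a score above 0.4. The Has3 row of the tables describes a transcript at chr8:106870891-106884566 on the plus strand of GRCm38, whose ends match the GENCODE transcript Has3-202 with 4 exons.

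Cd44, the main cell-surface receptor for hyaluronan, had a small ratio with a high rank. The authors' deposited tables gave log2 ratios of 0.23 (score 0.546, 1.18-fold higher) in the libraries labelled JICD1 and 0.81 (score 0.775, 1.75-fold higher) with NICD1. The NICD1 score lay just under the threshold of 0.8. Its rank of score among genes with ratios of like size was 92.8% in the JICD1 comparison and 99.2% in the NICD1 comparison, among the highest of the 9 genes. Cd44 is spliced into many isoforms, and a value per gene does not tell them apart.

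Versican, encoded by Vcan, is the large chondroitin sulfate proteoglycan that binds hyaluronan with one end and other matrix proteins with the opposite end. The authors' deposited tables gave Vcan -0.92 (score 0.779, 1.89-fold lower) in the libraries labelled JICD1 and -0.41 (score 0.675, 1.33-fold lower) with NICD1. Its JICD1 score was the nearest below the threshold among the 9 genes. The Vcan row describes a transcript at chr13:89725434-89740397 on the minus strand of GRCm38, which matches the GENCODE transcript Vcan-209. That transcript has 3 exons and covers 17.2% of the span of the gene, which GENCODE lists with 9 transcripts. No source used here says whether reads were counted on that transcript or on the whole gene.

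**Figure D2:**
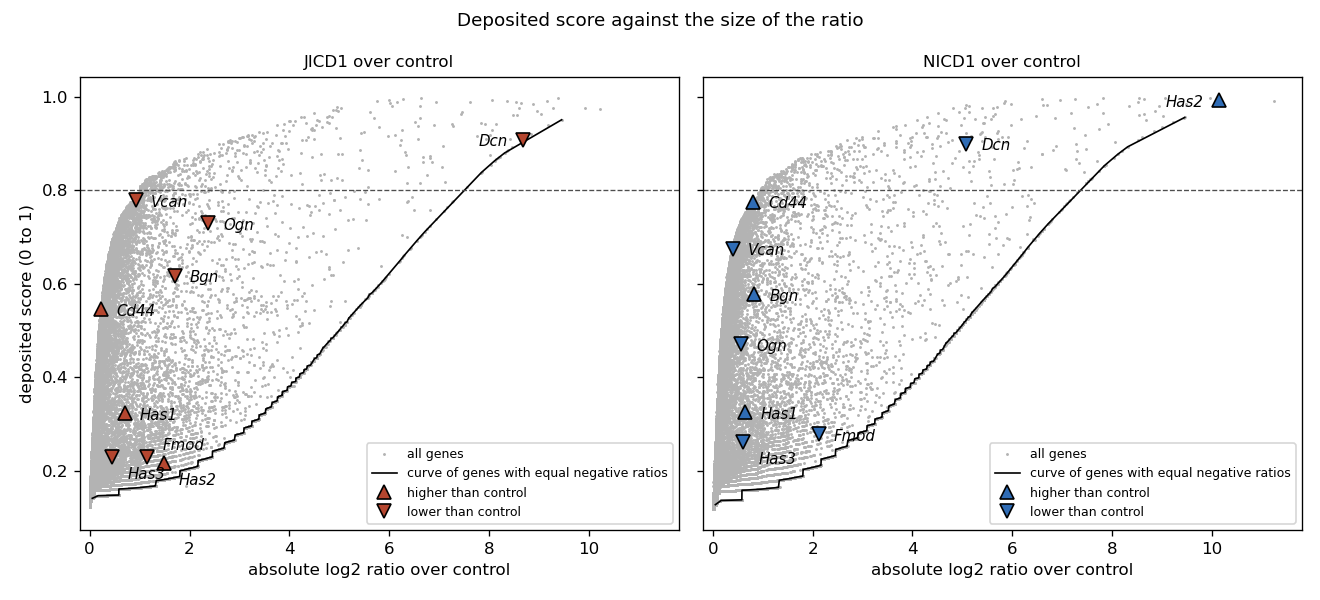
Deposited score (vertical axis) against the absolute log2 ratio over control (horizontal axis) for all genes (grey) and the 9 measured genes (triangles, pointing up where higher and down where lower than control), in the libraries labelled JICD1 on the left and with NICD1 on the right. The black line is the curve of genes with equal negative ratios and the dashed line the score of 0.8. Dcn lies on the curve in the libraries labelled JICD1 and far above it with NICD1. Cd44 and Vcan lie at the upper left edge, with scores that are under 0.8 but high for their small ratios.

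Dcn encodes decorin, which binds collagen fibrils and TGF-beta. Its log2 ratio was -8.67 (score 0.909) in the libraries labelled JICD1 and -5.08 (score 0.8998) with NICD1 in the authors' deposited tables. With NICD1 this is a value 33.7-fold lower than control, and the score lay 0.378 above the floor curve. In the libraries labelled JICD1 the score lay within 0.0061 of the curve, so that group was inferred to be at the floor, and its fold is left out. On chromosome 10 Dcn had the lowest of 797 ratios in the JICD1 comparison and number 3 from the bottom of 813 with NICD1. In bulk RNA, fewer cells that express a gene and less RNA per cell cannot be told apart.

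Biglycan, encoded by Bgn, is the closest relative of decorin and carries chondroitin or dermatan sulfate chains. Bgn lay on opposite sides of 0 in the authors' deposited tables, at -1.71 (score 0.617, 3.26-fold lower) in the libraries labelled JICD1 and at 0.84 (score 0.578, 1.78-fold higher) with NICD1. The difference of the authors' deposited log2 ratios, JICD1 over NICD1, was -2.54. Ogn encodes osteoglycin, also called mimecan. Its log2 ratios in the authors' deposited tables were -2.37 (score 0.730, 5.18-fold lower) in the libraries labelled JICD1 and -0.57 (score 0.471, 1.48-fold lower) with NICD1. Fmod encodes fibromodulin, a keratan sulfate proteoglycan of collagen fibrils. The authors' deposited tables placed Fmod at -1.16 (score 0.230, 2.23-fold lower) in the libraries labelled JICD1 and at -2.12 (score 0.278, 4.35-fold lower) with NICD1. Fmod was thus the one small proteoglycan here with its lower value in the NICD1 libraries, with scores under 0.3 in both comparisons. The Bgn and Fmod rows describe transcripts at chrX:73483635-73495929 and chr1:134037496-134040474 of GRCm38, both on the plus strand. The Fmod transcript, Fmod-202, has 2 exons and covers 27.0% of the span of its gene.

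Of the 5 small leucine-rich genes among the 10, 4 had ratios. All 4 lay below 0 in the libraries labelled JICD1, with a median of -2.04, and 3 lay below 0 with NICD1, with a median of -1.34. Dcn was scored in each comparison. Counting by size of ratio, 4 of the 9 genes (Dcn, Ogn, Bgn, Fmod) were lower by a log2 of 1 or more in the libraries labelled JICD1, and Has2 alone was higher by as much, where 14.4% and 14.5% of all genes were. With NICD1, 2 of the 9 (Dcn, Fmod) were lower by a log2 of 1 or more and 1 (Has2) higher, where 12.1% and 16.6% of all genes were. Setting JICD1 over NICD1, 4 genes (Has2, Dcn, Bgn, Ogn) were lower by 1 or more and 0 were higher, beside 13.6% and 10.6% of the 18182 genes in both tables. The median over the 9 genes was -0.92 in the libraries labelled JICD1, against 0.05 over all genes, and -0.41 with NICD1, against -0.02 over all genes.

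Promoter sequences are shown for Cd44, Bgn and Ogn. Cd44 is a receptor with scores under the threshold but high for the size of its ratios. Bgn and Ogn are a pair of small proteoglycans that differed between the constructs. RefSeq's promoter table for GRCm38.p6 matched 6 of the 10 genes (Has1, Cd44, Vcan, Bgn, Fmod, Ogn). The 250 bases before each gene's start are given 5′ to 3′ on the gene's strand, in lower case with motif matches in capitals. The intervals are chr2:102901666-102901915 on the minus strand for Cd44, chrX:73483351-73483600 on the plus strand for Bgn and chr13:49607765-49608014 on the plus strand for Ogn.
Cd44: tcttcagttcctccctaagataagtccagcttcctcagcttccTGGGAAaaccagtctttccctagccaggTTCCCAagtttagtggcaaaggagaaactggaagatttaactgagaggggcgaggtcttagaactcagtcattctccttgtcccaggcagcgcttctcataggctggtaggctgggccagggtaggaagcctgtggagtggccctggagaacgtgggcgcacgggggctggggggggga
Bgn: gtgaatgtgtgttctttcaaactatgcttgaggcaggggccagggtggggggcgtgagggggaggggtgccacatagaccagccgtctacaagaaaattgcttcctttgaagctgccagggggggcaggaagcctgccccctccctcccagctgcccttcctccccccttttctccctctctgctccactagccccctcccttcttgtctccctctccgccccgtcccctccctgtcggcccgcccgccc
Ogn: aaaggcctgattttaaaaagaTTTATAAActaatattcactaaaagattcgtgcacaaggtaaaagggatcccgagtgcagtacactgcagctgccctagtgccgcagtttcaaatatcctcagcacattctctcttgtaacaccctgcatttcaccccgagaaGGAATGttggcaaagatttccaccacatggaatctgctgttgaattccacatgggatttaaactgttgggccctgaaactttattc

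Both strands of these windows were searched for 4 motifs: TGGGAA, the core of sites of RBPJ, the DNA-binding partner of NICD1; GGAATG, the core of TEAD sites; TGANTCA, the AP-1 site; and TATAAA, the TATA box. Among 32851 promoter windows, 21.6% held TGGGAA, 12.6% GGAATG, 6.75% TGANTCA and 12.4% TATAAA. In Cd44, TGGGAA matched on the plus strand of the gene at 207 to 202 bases and on the opposite strand at 179 to 174 bases before the start. Vcan held TGGGAA at 187 to 182 bases before the start. Ogn held GGAATG at 86 to 81 bases and overlapping TATAAA matches on opposite strands between 229 and 222 bases before the start, too far upstream for a usual TATA box. The windows of Has1, Bgn and Fmod held none of the 4 motifs. GC content was 64.4% in the Bgn window and 42.0% in that of Ogn, against a median of 52.4% over all windows. A match is a description of these letters and not a binding site.

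Several of the small proteoglycan genes sit beside each other in the mouse genome. Dcn is followed in gene order by Lum, Kera and Epyc, all of the same family, and none of these 3 had a ratio. Fmod lies beside Prelp and Optc. Prelp, which encodes a proteoglycan linking basement membranes to collagen, had log2 ratios of -4.45 (score 0.932) in the libraries labelled JICD1 and -2.53 (score 0.868) with NICD1 in the authors' deposited tables. Optc, the opticin gene, stood at -1.31 (score 0.202) in the libraries labelled JICD1 and 1.81 (score 0.333) with NICD1 in the authors' deposited tables. Ogn lies beside Omd, Aspn and Ecm2. Omd, which encodes osteomodulin, had -1.99 (score 0.775) in the libraries labelled JICD1 and -1.76 (score 0.775) with NICD1 in the authors' deposited tables. Aspn and Ecm2 lay between -0.69 and 0.36, with scores up to 0.231, in the authors' deposited tables.

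Neighbours outside the family did not follow one direction. Btg1, near Dcn, stood at -0.23 in the libraries labelled JICD1 and -0.64 with NICD1, and Btg2, next to Fmod, at 1.24 and 2.25 in the same order in the authors' deposited tables. Both encode antiproliferative proteins. Around Bgn all 5 measured neighbours lay below 0 in each comparison. Among them, Trex2 in both comparisons and Atp2b3 in the JICD1 comparison had a group inferred at the floor. Zfp92 had scores up to 0.162 in the authors' deposited tables. Of the 5 neighbours, Dusp9, a phosphatase gene of the MAP kinase pathway, was scored at -1.42 in the libraries labelled JICD1 and -1.98 with NICD1. Haus7 was scored at -1.09 in the libraries labelled JICD1, both by the authors' deposited tables. Edil3, a matrix protein gene near Vcan, was scored at -3.32 in the libraries labelled JICD1 and stood at -0.22 with NICD1 in the authors' deposited tables. Apip, near Cd44, was scored with NICD1 at 1.31 in the authors' deposited table. Around Has1 and Has3 no measured neighbour was scored.

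**Figure D3:**
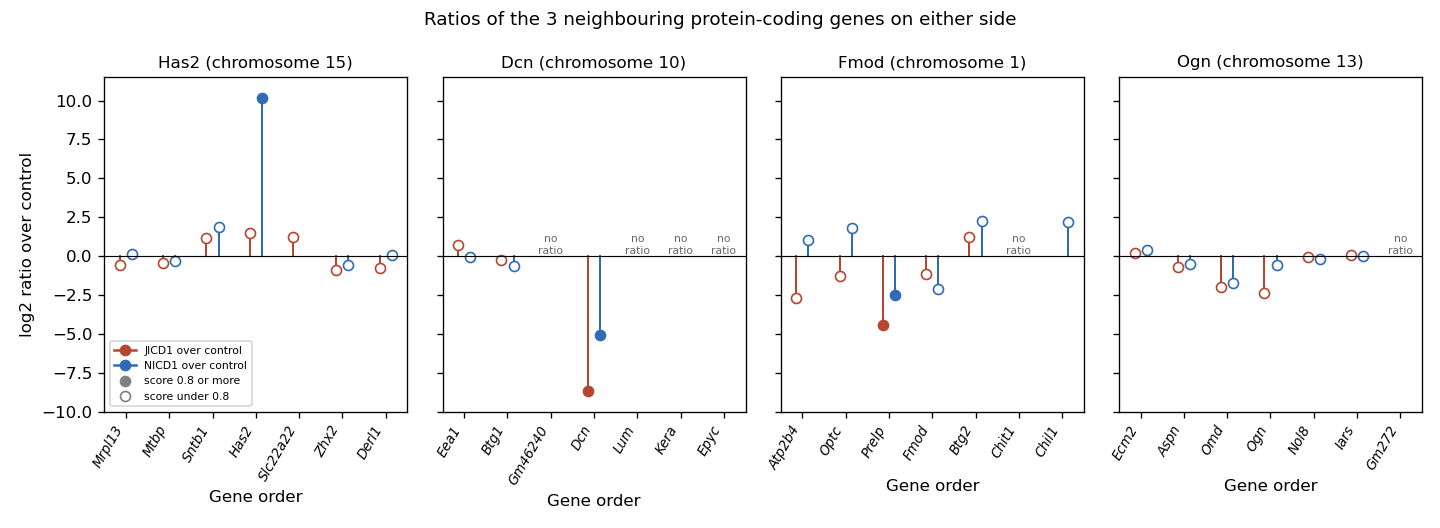
Log2 ratios over control (vertical axis) of Has2, Dcn, Fmod and Ogn and of the 3 protein-coding genes on either side in gene order (horizontal axis), for the libraries labelled JICD1 (red) and NICD1 (blue); filled points have a score of 0.8 or more. Has2 at 10.13 with NICD1 has no neighbour above 1.85, and Prelp beside Fmod is the scored neighbour in these 4 groups of genes.

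The wider family of small leucine-rich proteoglycans was described from a list of 13 other genes, 11 with ratios. In the libraries labelled JICD1, 8 of the 11 lay below 0, 2 were scored lower and 1 higher, and the median was -0.79. The scored genes in the authors' deposited table were Prelp, Tsku (-1.11, score 0.804), whose product tsukushi modulates BMP and Wnt signals, and Podnl1 (1.42, score 0.803). With NICD1, 6 of the 11 lay below 0, Prelp was scored, and the median was -0.29. Together with the 4 genes above, 12 of 15 measured small leucine-rich genes lay below 0 in the libraries labelled JICD1 and 9 of 15 with NICD1. Over all genes, 45.5% lay below 0 in the first comparison and 51.5% in the second. These genes and all lists used here were chosen with earlier results of these data known. Nothing is therefore read from their counts against the shares of all genes.

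Decorin and its relatives are also made by fibroblasts, so fibroblast and pericyte markers were listed as well. Of 11 fibroblast and pericyte markers, 8 had a ratio there, 6 of them below 0 and 4 scored lower, with a median of -1.68. Over all genes in that comparison, 45.5% lay below 0 and 1.74% were scored lower. The scored markers in the authors' deposited table were Anpep (-3.79), the fibrillar collagen genes Col3a1 (-2.81) and Col1a1 (-1.19), and the PDGF receptor gene Pdgfrb (-2.17). Col1a2, the gene of the other type I collagen chain, lay above 0 there at 0.92 (score 0.751) in the authors' deposited table. With NICD1, 3 of 8 lay below 0, beside 51.5% of all genes, with a median of 0.87. Col1a2 (1.80) and Col1a1 (1.74) were scored higher and Col3a1 (-3.31) lower in the authors' deposited table. Fap in the JICD1 comparison and Rgs5 in the NICD1 comparison had a control inferred at the floor, and Thy1 and Pdpn had no ratio. The part of such cells in the ratios of Dcn, Bgn, Ogn and Fmod was not tested. Astrocyte markers had medians of -0.72 in the libraries labelled JICD1 and -0.70 with NICD1 over 10 genes. Of these, Clu (-3.88) was scored lower and the transcription factor gene Nfia (3.77) higher in the libraries labelled JICD1, and Clu (-2.30) and Sox9 (-1.64) lower with NICD1, in the authors' deposited tables. Of 7 microglia markers 1 was scored, Tmem119 at -8.48 in the libraries labelled JICD1 in the authors' deposited table, and the medians were -0.61 there and 0.96 with NICD1. None of the 5 measured endothelial markers was scored in either comparison; Vwf had the highest score, 0.538, at -1.95 in the libraries labelled JICD1 in the authors' deposited table.

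Hyaluronan is also set by its precursors, its breakdown and the proteins that bind it. Of 22 genes on that list, 19 had a ratio in each comparison. The list lay near the middle of all genes, with medians of -0.17 in the libraries labelled JICD1 and -0.16 with NICD1, and 1 gene was scored lower in each comparison. That gene was Stab1, which encodes a scavenger receptor, at -4.46 (score 0.872) in the libraries labelled JICD1 and -2.44 (score 0.801) with NICD1 in the authors' deposited tables. Ptx3, which encodes a pentraxin that crosslinks hyaluronan in the matrix around the oocyte, stood at 0.25 (score 0.408) in the libraries labelled JICD1 and was scored at 2.31 (score 0.884) with NICD1 in the authors' deposited tables. Cemip, a hyaluronan-degrading factor named after its values were seen, lay at -4.52 (score 0.669) in the libraries labelled JICD1 and 1.41 (score 0.655) with NICD1 in the authors' deposited tables. Ugdh, the enzyme gene for the precursor UDP-glucuronic acid, also named after its values were seen, lay at -0.69 (score 0.750) in the libraries labelled JICD1 and 0.07 (score 0.305) with NICD1 in the authors' deposited tables. The link protein genes Hapln1 and Hapln2, whose products clamp versican to hyaluronan, had no ratio. Hapln3 and Hapln4, named after their values were seen, had ratios in the authors' deposited tables. Hapln3 lay at -2.48 in both comparisons, each with a group inferred at the floor. Hapln4 lay at 0.40 (score 0.477) in the libraries labelled JICD1 and 0.12 (score 0.266) with NICD1.

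Partners and ligands of CD44 lay on both sides of 0. Of 12 listed genes, 11 had a ratio in the libraries labelled JICD1 and 12 with NICD1, with medians of 0.09 and 0.19 in that order. At a log2 ratio of -1 or less were 2 genes in the libraries labelled JICD1 and 0 with NICD1, beside 14.4% and 12.1% of all genes. At 1 or more were 0 in the libraries labelled JICD1 and 3 with NICD1, beside 14.5% and 16.6% of all genes. Spp1, which encodes the CD44 ligand osteopontin, was scored at -1.45 (score 0.841) in the libraries labelled JICD1 and stood at -0.34 (score 0.653) with NICD1 in the authors' deposited tables. No gene of this list was scored with NICD1. The highest score there was that of Ezr, the gene of the membrane linker ezrin, at 1.02 (score 0.792) in the authors' deposited table.

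Other large proteoglycans gave little. Of 11 further chondroitin sulfate proteoglycan genes, 7 had a ratio, none was scored in either comparison and no score reached 0.5. Cspg4, the NG2 proteoglycan gene, had the highest score, with log2 ratios of -2.36 (score 0.305) in the libraries labelled JICD1 and -2.46 (score 0.315) with NICD1 in the authors' deposited tables. Versican was therefore the one chondroitin sulfate proteoglycan of the lectican family with a score above 0.5, as Acan, Bcan and Ncan lay at or under 0.247. Among 4 basement membrane proteoglycan genes, Agrn, the agrin gene, was scored at -1.69 (score 0.815) in the libraries labelled JICD1 and stood at -0.01 (score 0.130) with NICD1 in the authors' deposited tables.

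The sugar chains of these proteoglycans are built by a separate set of enzymes. Of 22 genes for chondroitin and dermatan sulfate chains, 0 were scored in either comparison. In the libraries labelled JICD1, 15 of 20 measured genes lay below 0, beside 45.5% of all genes, with a median of -0.30. With NICD1, 8 of 22 lay below 0, beside 51.5% of all genes, with a median of 0.31. The highest scores in each comparison belonged to Csgalnact1, which starts chondroitin chains, at -5.57 (score 0.770) in the libraries labelled JICD1, and to Chst7, a sulfotransferase gene, at -1.18 (score 0.740) with NICD1 in the authors' deposited tables. Xylt1, which adds the first sugar to the core protein and was named after its values were seen, lay at -5.99 (score 0.620) in the libraries labelled JICD1, where the group was inferred to be at the floor, and at -2.57 (score 0.517) with NICD1 in the authors' deposited tables. Of 8 keratan sulfate chain genes, Chst2, a sulfotransferase gene, was scored with NICD1 at 2.92 (score 0.884) and stood at 1.25 (score 0.648) in the libraries labelled JICD1 in the authors' deposited tables.

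Among these lists of pathway genes, the largest ratio belonged to a protease that cuts versican. Of 8 listed genes 7 had ratios, and the medians were 0.64 in the libraries labelled JICD1 and 1.59 with NICD1. Adamts9, which encodes a versican-cleaving protease, was scored at 8.14 (score 0.943) in the libraries labelled JICD1 and at 7.27 (score 0.899) with NICD1 in the authors' deposited tables. Adamts1, another versican-cleaving protease, was scored at 1.49 (score 0.813) in the libraries labelled JICD1 and stood at 1.02 (score 0.754) with NICD1 in the authors' deposited tables. Adamts4, also a versican-cleaving protease and named after its values were seen, lay below control at -1.83 (score 0.657) in the libraries labelled JICD1 and above it at 1.59 (score 0.786) with NICD1 in the authors' deposited tables. Adamts5, likewise named after its values were seen, lay at 2.76 (score 0.750) in the libraries labelled JICD1 and 2.28 (score 0.691) with NICD1 in the authors' deposited tables. Of the 7 genes, 3 lay below 0 in the libraries labelled JICD1 and 2 with NICD1, beside 45.5% and 51.5% of all genes. Beside these, Vcan itself lay below 0 in both comparisons, and the ratios say nothing of the cleavage of its product.

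**Figure D4:**
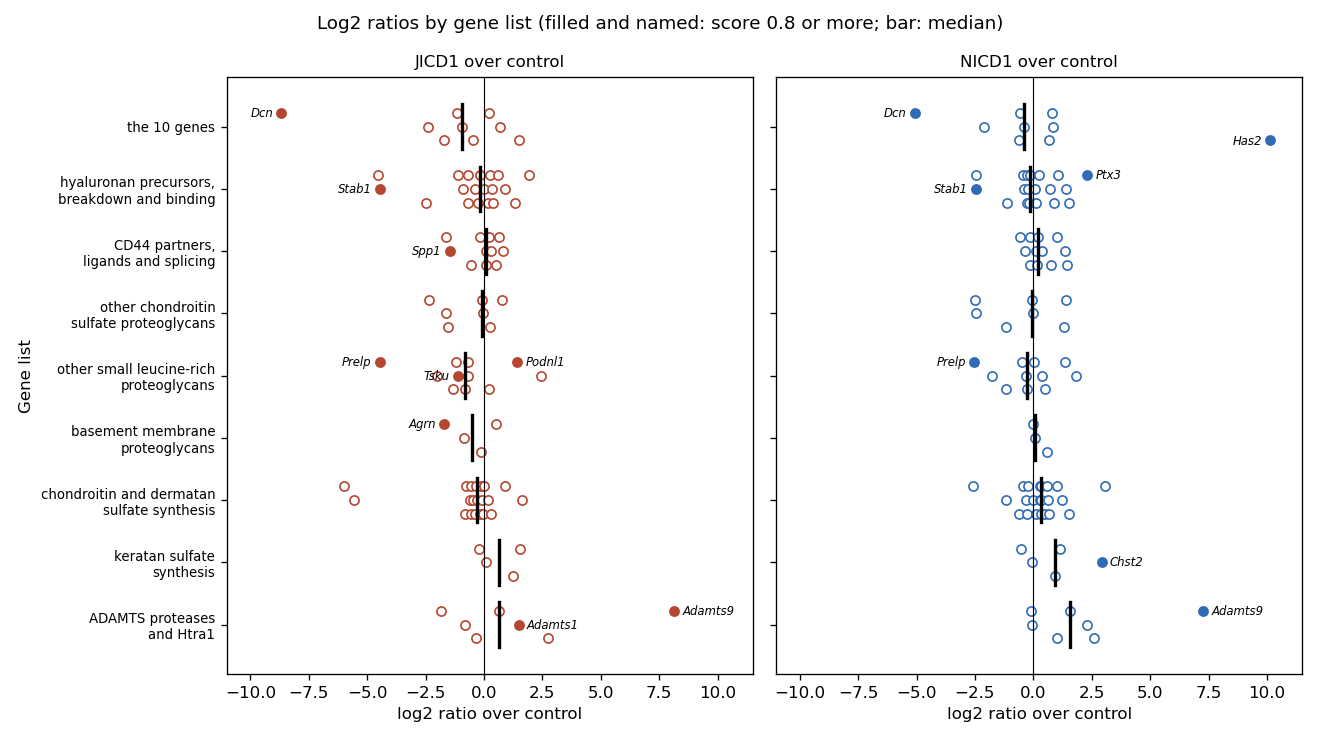
Log2 ratios over control (horizontal axis) of the measured genes of the 10 and of each of the 8 pathway lists (rows; marker lists are not drawn), in the libraries labelled JICD1 on the left and with NICD1 on the right; filled and named points have a score of 0.8 or more, and the black bar is the list median. The 10 genes have medians of -0.92 and -0.41 in that order, and Adamts9, at 8.14 and 7.27, is the scored gene with the largest ratio in the other lists shown.

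By a distance over both log2 ratios, the genes most like Dcn were sought among genes scored in both comparisons. Of 173 such genes the nearest were Pate14 (distance 0.66), the scavenger receptor gene Scara5 (1.15) and the matrix protein gene Sned1 (1.35). Sned1 had log2 ratios of -7.45 in the libraries labelled JICD1 and -5.66 with NICD1 in the authors' deposited tables. In the libraries labelled JICD1 Dcn, Pate14 and Scara5 were each inferred to be at the floor, so their JICD1 ratios, and with them the distances, depend on the floor value. Likeness here rests on 2 values per gene that share their control.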

How the data were processed

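RNA-seq libraries of 9 samples fall into 3 groups of 3 by the labels' titles. The submitters' processing notes list Bowtie2, BWA and mm9 without versions or roles, while the tables' own descriptions give GRCm38 positions. No source used here gives the counting of reads, the combining of libraries or the making of the score. The authors deposited tables of log2 ratios over control and of a score between 0 and 1, per the file headers; they hold 0 unused columns of per-sample values. A count test planned for values per library could not be run. Depth is unknown.

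Genes without a symbol were named through NCBI and Ensembl IDs, which gave names to 18681 of 18971 genes (JICD1) and 18998 of 19287 (NICD1). The members and lists were chosen with earlier results of these data known. Named were the 10 members, up to 4 scored genes per list and table or else the highest score, Jag1, Notch1, 3 neighbours on either side and the 3 nearest genes to Dcn; exceptions are marked. Nearest genes to Has2 are left out, as the rule asks for a score of 0.8 in both tables, which Has2 lacks with JICD1. Of the neighbours without a high score only some are named. Equal ratios were matched within 1e-06; floor calls used a score within 0.002 of the curve (0.01 above a log2 of 6). Python 3.11.15, pandas 2.3.3 and numpy 2.4.6 were used.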

Additional observations from a re-analysis of the deposited data

How the results depend on the processing

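With a score of 0.7 or more, 3 members were called lower in the libraries labelled JICD1 (Dcn, Vcan, Ogn; 4.43% of all genes) and 2 higher with NICD1 (Has2, Cd44; 4.44% of all genes). With 0.9 or more, 0 were lower with NICD1, as Dcn lay just under, beside 0.145% of all genes. With an absolute log2 ratio of 1 or more, whatever the score, 4 were lower and 1 higher in the libraries labelled JICD1 and 2 lower with NICD1. Without Dcn, the member with a group at the floor, the JICD1 median was -0.69. Centring on all genes or on the chromosome changed the sign of 2 of 54 single-gene values: Has1, JICD1 over NICD1, became -0.0146 and -0.0197. Has2 moved by over 0.1 with its chromosome median, to 1.93 in the libraries labelled JICD1 and to -8.23 for JICD1 over NICD1. Matching by the tables' symbols alone left the 4 counts of calls at a score of 0.8 as they were; the other thresholds were not rerun that way. No paired analysis was possible because the tables hold no value per library; for the same reason no library could be left out. Among genes with ratios of like size, the scores of Has3 in both comparisons, of Has1 in both and of Has2 and Fmod in the JICD1 comparison ranked under 50%.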

Other observations

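Chromosomes other than 15 also had medians away from 0. In the libraries labelled JICD1 the 826 genes of chromosome 3 had a median log2 ratio of 0.57, and with NICD1 the 569 genes of chromosome 19 had one of 0.46. None of the 10 genes lies on either chromosome.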
